A study of Arabidopsis thaliana with 8 samples.

Results

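The early risers of the LEC2 line are 150 of 22746 non-control probe sets of the Affymetrix ATH1 array. They were chosen by their values: the mean signal of the line after 4 h with dexamethasone lay at least 1 unit, on the log2(mean + 45) scale, above both the untreated line and dexamethasone-treated wild type, the mean after 1 h lay at least 0.5 above the untreated line, and the highest group mean reached at least 200. A log2 difference of 1 is a 2-fold change of the value plus 45. In all, 164 probe sets met these thresholds, and 14 of them were left out by gene name or locus; no gene of the cytochrome P450, UGT or GST families by symbol was among the 164. Of the 150, 67 list a single gene in the platform annotation, 1 lists a pair of genes and 82 are not listed and are unnamed here, so genes that the rule leaves out by name or family may be among them.

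The samples were whole 8-day-old seedlings of Arabidopsis thaliana, accession Ws-0. A line with a 35S:LEC2-GR transgene was sampled without treatment, after 1 h and after 4 h of dexamethasone, and non-transgenic Ws-0 wild type was sampled after 4 h of dexamethasone. Each of the 4 groups had 2 biological replicates with 1 array each, 8 arrays in all, from polyA RNA. Every group of the line carries the transgene, including the untreated one, and the series as used here has no untreated wild type and no wild type at 1 h. The labels do not say how many plants made up a sample or how many transgenic lines were used. LEC2 itself has no named probe set here, so the transgene's own transcript was not read out.

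LEAFY COTYLEDON2 (LEC2) is a transcription factor with a B3 DNA-binding domain that acts in the embryo, where it promotes the maturation programme with its seed proteins and oil. The 35S promoter of cauliflower mosaic virus drives the transgene in most tissues, so the protein is present where it normally is not. Fused to the hormone-binding part of the rat glucocorticoid receptor (GR), LEC2 stays inactive until dexamethasone, a synthetic glucocorticoid, is added. Transcripts that rise soon after the hormone is given are the usual candidates for direct targets of such a fusion, although treatment and handling can also move transcripts within the same time.

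The values are MAS5 intensities on a linear scale, and no detection calls come with them. The replicates of a group had a Pearson correlation of 0.970 to 0.978 over probe sets, after log2, and array medians ran from 170 to 191. The records of the instrument runs split the arrays as the rule does. A hybridisation time is filled in for the untreated and wild type arrays and blank for the 1 h and 4 h arrays, and the 4 arrays of the first kind were scanned before the 4 of the second kind. For every difference that chose the early risers, this split and the groups therefore cannot be told apart, whereas the line at 4 h and at 1 h lie on one side of it, and wild type and the untreated line on the other. The arrays were also scanned group by group, in the order wild type, untreated line, 1 h and 4 h. Scan order and group therefore cannot be told apart in any comparison. For 4 h replicate 2 the record mentions a high background. Since whole seedlings were sampled, a change in the number of cells of a type and a change in RNA per cell cannot be told apart.

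The early risers had a median intensity of 132 and 137 on the untreated arrays, 556 and 577 on the 1 h arrays, 812 and 754 on the 4 h arrays and 191 and 167 on the wild type arrays. The median difference was 1.45 for 1 h against untreated, 1.85 for 4 h against untreated and 1.56 for 4 h against wild type. These 3 differences chose the members and are given as a description, without a test. Of the 150 probe sets, 113 were at least 1 above the untreated line at 1 h, 64 were at least 2 above it at 4 h, and 50 were at least 2 above wild type at 4 h. On 133 of them all 4 arrays of the dexamethasone-treated line exceeded all 4 arrays of the untreated line and wild type, which held for 4.45% of the probe sets whose highest group mean reached 200. Both 1 h arrays exceeded both untreated arrays on 143 of the 150, and on 28.4% of those same probe sets. The members where these arrays overlapped include AT1G26380, AT1G57630, AT1G60590, AT4G23000 and AT5G16240. In limma 150 were called higher at 4 h than in the untreated line, 148 higher than wild type and 131 higher at 1 h than untreated; the shares of all tested probe sets called higher in these comparisons were 18.8%, 3.42% and 9.5% (called lower 16.8%, 3.21% and 7.16%), and nothing is read from the members' counts because the rule used these contrasts.

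**Figure D1:**
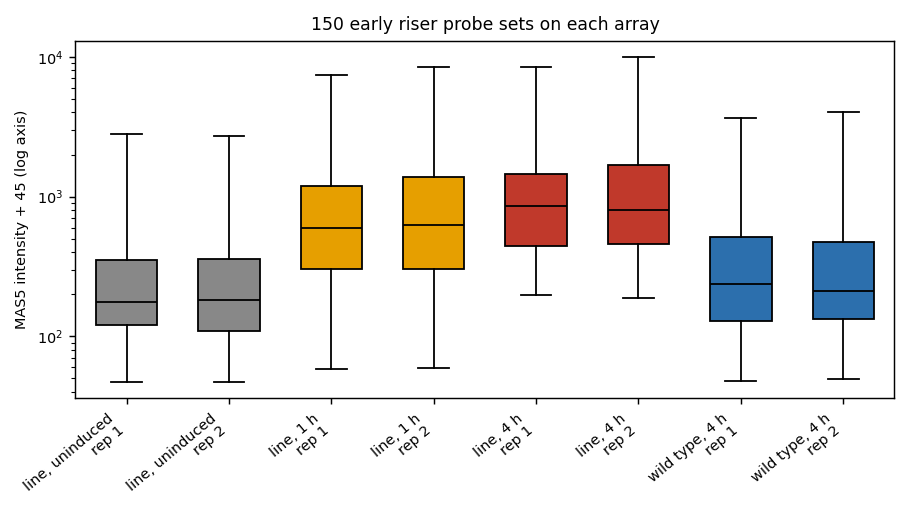
Intensity plus 45, on a log axis, of the 150 early risers on each of the 8 arrays; boxes span the quartiles, the line is the median and whiskers reach the lowest and highest value. The medians are 132 and 137 (before 45 is added) in the untreated line and 812 and 754 at 4 h, with the 1 h arrays near the 4 h arrays and wild type near the untreated line.

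Most probe sets that met both 4 h thresholds also met that for 1 h, which was set lower and against the untreated line alone. The 1 h and 4 h rises share the same untreated arrays, so a low untreated mean raises both. Leaving the named genes out throughout, 181 probe sets met both 4 h thresholds and the level threshold, of which 150 also met that for 1 h and 31 did not. Across the 150, the mean level at 1 h was a median 73.9% of that at 4 h, with a range from 7.32% to 335%. The 1 h level was at or above the 4 h level for 39 and under 50% of it for 34.

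The thresholds cut through a continuous range. Of the probe sets that met the other criteria, the nearest inside the limit for 4 h against untreated lay at 1.0041 and 1.0074 and the nearest outside at 0.9973 and 0.9963. For 4 h against wild type, AT1G21520 (1.0096) and IQD22 (1.0108) were just inside and unlisted probe sets at 0.9906 and 0.9864 just outside. At 1 h the limit fell between AT4G23000 (0.52), AT3G16530 (0.53) and, outside, AT4G11800 (0.45) and an unlisted probe set (0.42). Recounted 8 times with 1 array left out each time, the criteria were met by 142 to 159 probe sets, and 94 of the 150, including 42 of the 67 with a single gene, met them every time.

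The early risers with a single gene were ranked by the smallest of their 3 differences, and the first 3 of them had 1 h levels of 126%, 110% and 90.8% of those at 4 h. Families given here for loci without a symbol are background knowledge of the Arabidopsis annotation and do not come from the deposited files. AT4G30060, of a glycosyltransferase family, read 99.6 and 113 in the untreated line (replicate 1 first, here and below), 918 and 1346 at 1 h, 874.5 and 919 at 4 h and 134 and 107 in wild type. AT1G20070 read 160.5 and 257.5 untreated, 1323 and 1106 at 1 h, 1114 and 1091 at 4 h and 205 and 146 in wild type. AT5G46230 read 122 and 143, then 753 and 796, then 801 and 906, against 166 and 159 in wild type. In each of these genes the control groups overlapped or lay close together, and the dexamethasone-treated line stood far above both at both times. AT5G55620 was of this kind at a higher level, with 2093 and 2668 untreated, 7414 and 8466 at 1 h, 7486 and 9424 at 4 h and 1840 and 1781 in wild type.

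Other members of this leading group had higher values at 4 h than at 1 h. AT1G53080, of the legume lectin family of carbohydrate-binding proteins, read 114 and 93.0 untreated, 511 and 571 at 1 h, 1232 and 1156 at 4 h and 157 and 180 in wild type. AT5G52450, of the MATE family of efflux transporters, read 150 and 219 untreated, 766.5 and 666.5 at 1 h, 1995 and 2298 at 4 h and 583.5 and 452.5 in wild type. The levels of AT5G52450 in wild type lay above both untreated arrays and below both 1 h arrays. AT5G06270 read 602 and 654.5, then 2248 and 2046, then 3183 and 3508, with 754 and 975 in wild type. AT4G24110 read 117 and 46.3, then 281 and 458, then 626 and 771, with 76.2 and 94.0 in wild type. AT4G19430 read 1.9 and 72.9 untreated, 206 and 213 at 1 h, 616 and 574 at 4 h and 58.9 and 26.5 in wild type; its control values lie near the bottom of the scale. From 1 h to 4 h AT5G06270 differed by 0.63 (limma adjusted p = 0.00899; up to 0.0838 without 1 h replicate 2 or 4 h replicate 2). The calls of AT4G24110 (0.87, adjusted p = 0.0448) and AT4G19430 (1.33, adjusted p = 0.0184) were lost without either 4 h array, among other settings (up to 0.331 and 0.369).

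**Figure D2:**
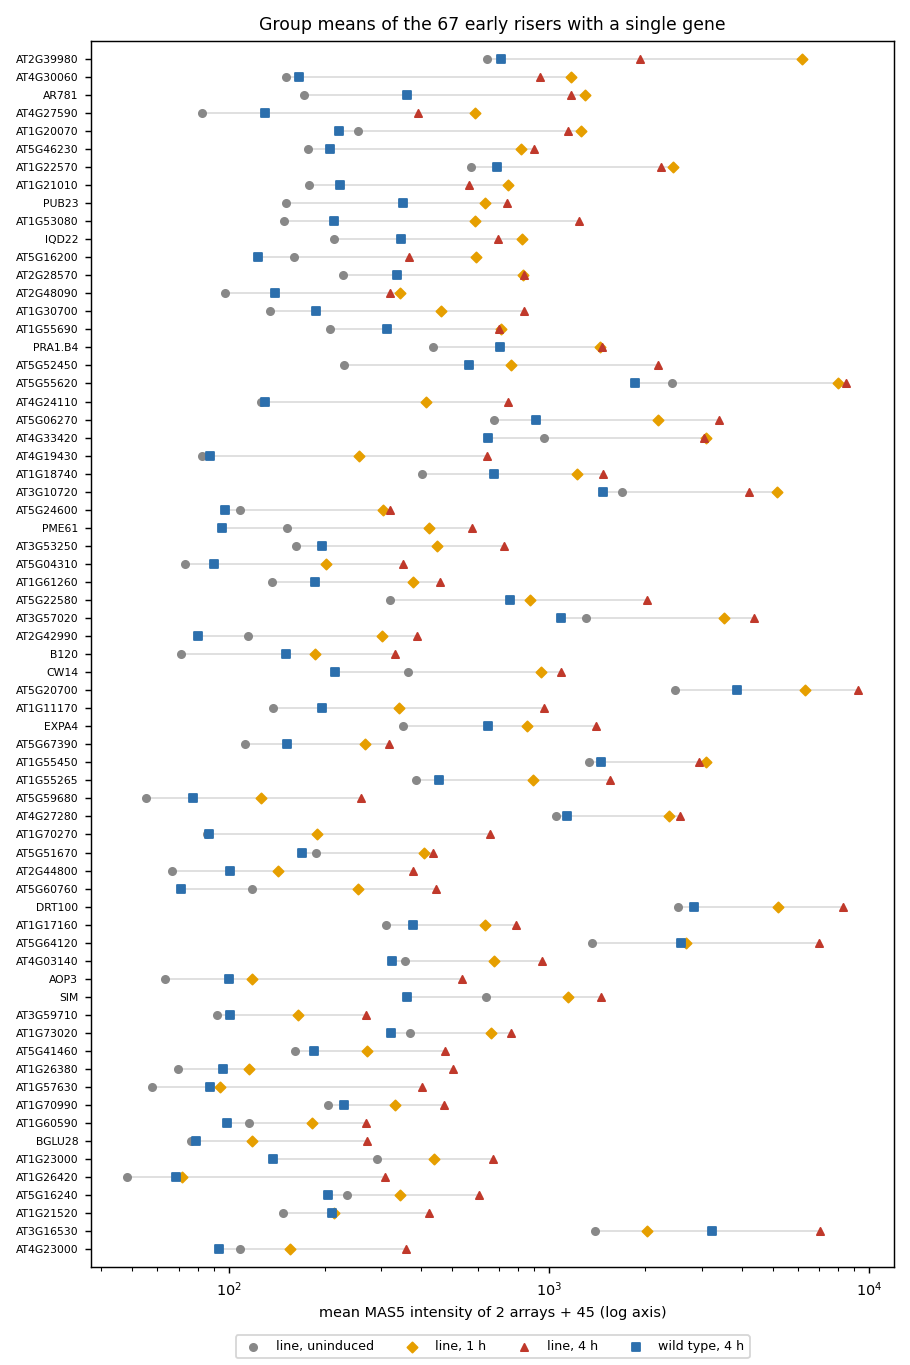
Mean intensity of the 2 arrays of each group, plus 45, on a log axis, for the 67 early risers with a single gene, ordered by the difference between 1 h and the untreated line. AT2G39980 is at the top, with its 1 h mean to the right of its 4 h mean. The lower part of the plot is mixed: in AOP3 and AT1G26420 the 1 h mean lies closer to the controls than to 4 h, and in SIM it lies closer to 4 h.

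The comparison of 4 h with 1 h asks whether these transcripts went on rising, held or came down while the hormone was present. The rule did not use this difference itself, but it set limits on both of its terms. The smallest rise over the untreated line that it allowed was larger at 4 h than at 1 h. The 4 h mean also had to exceed wild type. Of the 150 early risers 50 were called higher at 4 h than at 1 h and 6 lower (limma, Benjamini-Hochberg adjusted p under 0.05), where 10.3% and 9.34% of all 15026 tested probe sets were called higher and lower; 94 were not called. The median difference was 0.40 over the members and -0.03 over all tested probe sets. Choosing members by a high 4 h mean can by itself add higher calls, remove lower calls and raise this median. Nothing is therefore read from how the members' counts and median differ from those of all tested probe sets. The count of 50 was 31 without 4 h replicate 1 and 27 without 4 h replicate 2, when 144 of the 150 passed the filter on low values. Of the 67 with a single gene 25 were called higher and 2 lower, and 8 of these 27 calls held without each of the 8 arrays in turn.

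Among the early risers with a single gene, the 4 largest differences between 4 h and 1 h came from genes that were still low at 1 h; several unlisted probe sets had larger ones, up to 3.66. AOP3, a 2-oxoglutarate-dependent dioxygenase that modifies glucosinolate side chains, read 28.5 and 8.2 untreated, 84.0 and 62.7 at 1 h, 514 and 464 at 4 h and 64.1 and 47.2 in wild type. From 1 h to 4 h it rose by 2.18 (SE 0.32, limma adjusted p = 2.27e-04), and its 1 h arrays overlapped those of wild type. AT1G26380 and AT1G26420, of the berberine bridge enzyme-like family of oxidoreductases, rose by 2.14 and 2.10 (adjusted p = 0.00142 and 0.00327), calls that were lost with a pseudocount of 1 (adjusted p = 0.0733 and 0.194). AT1G26380 read 2.7 and 46.4, then 100 and 40.9, then 555 and 358, with 39.2 and 63.0 in wild type. Its 1 h arrays overlapped those of the untreated line and those of wild type. AT1G26420 read 4.2 and 2.4, then 15.3 and 37.9, then 311 and 215, with 12.6 and 34.1 in wild type. AT1G57630, of the TIR-domain proteins known from immune receptors, rose by 2.15 (SE 0.44, adjusted p = 0.00287), from 83.1 and 14.7 at 1 h to 252 and 461.5 at 4 h, with 15.4 and 10.3 untreated and 24.6 and 60.0 in wild type. In AT1G57630, too, the 1 h arrays overlapped those of both control groups. AOP3, AT1G26380, AT1G26420 and AT1G57630 did not pass the filter, and so were not tested, when a 4 h array was left out. AT1G70270 rose by 1.81 (adjusted p = 0.00208), from 184 and 103 to 501 and 717, with 23.7 and 57.1 untreated and 16.8 and 66.6 in wild type; without 4 h replicate 2 its adjusted p was 0.0519.

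Among members with a single gene, the calls of 4 h over 1 h that held without each of the 8 arrays in turn were those of AT5G64120, AT3G16530, AT5G52450, AT1G11170, AT5G22580, AT1G53080 and AT1G55265. AT5G64120, the class III peroxidase PRX71, of a family that acts on cell wall phenolics and hydrogen peroxide, read 1425.5 and 1208 untreated, 2665.5 and 2605 at 1 h, 7269 and 6561 at 4 h and 2217 and 2877 in wild type, a rise of 1.37 from 1 h to 4 h (SE 0.15, limma adjusted p = 1.63e-05). AT3G16530, a legume lectin family protein, read 1465.5 and 1237, then 1938.5 and 2014, then 7582 and 6394, with 3004 and 3384 in wild type, and rose by 1.79 (adjusted p = 9.82e-07). In AT5G52450 the difference between 4 h and 1 h was 1.52 (adjusted p = 4.98e-05), in AT1G11170 it was 1.51, in AT5G22580 1.21 and in AT1G53080 1.08. AT1G55265 rose by 0.80 (adjusted p = 0.00254).

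Between 1 h and 4 h, 6 early risers fell in the fit. They were AT2G39980, AT5G16200, the probe set of a gene pair and 3 unlisted probe sets, the lowest of these at -1.71. AT2G39980, of a plant acyltransferase family, went from 640 and 549 in the untreated line to 5859 and 6357 at 1 h and back to 2084 and 1683 at 4 h, with 714 and 611 in wild type. Between 1 h and 4 h it fell by 1.68 (SE 0.16, limma adjusted p = 4.14e-06), and its 1 h level was 324% of that at 4 h. AT5G16200 read 107 and 123, then 541 and 556, then 289 and 353, with 91.4 and 66.5 in wild type, and fell by 0.70 (adjusted p = 0.0387), a call lost without either 1 h array or either 4 h array (highest adjusted p = 0.224) and with pseudocounts of 1 or 16 or no filter. Among members with a single gene, the next in order, with differences that did not pass, were AT4G27590 (-0.59), of the proteins with a heavy metal-associated domain, AT1G21010 (-0.40) and AT4G30060 (-0.30). AT4G27590 read 57.3 and 18.3 untreated, 605 and 479 at 1 h, 393 and 299 at 4 h and 77.4 and 93.2 in wild type. AT1G21010 read 129 and 137, then 736 and 660, then 478.5 and 556, with 198 and 158 in wild type. The probe set that lists the neighbouring genes AT5G23360 and AT5G23350 together read 81.5 and 48.6, then 839 and 533, then 277 and 182, with 108.5 and 50.2 in wild type, and cannot be given to either gene. Its difference between 4 h and 1 h was -1.40 (adjusted p = 0.00428; up to 0.0803 without 1 h replicate 1 or 4 h replicate 2).

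**Figure D3:**
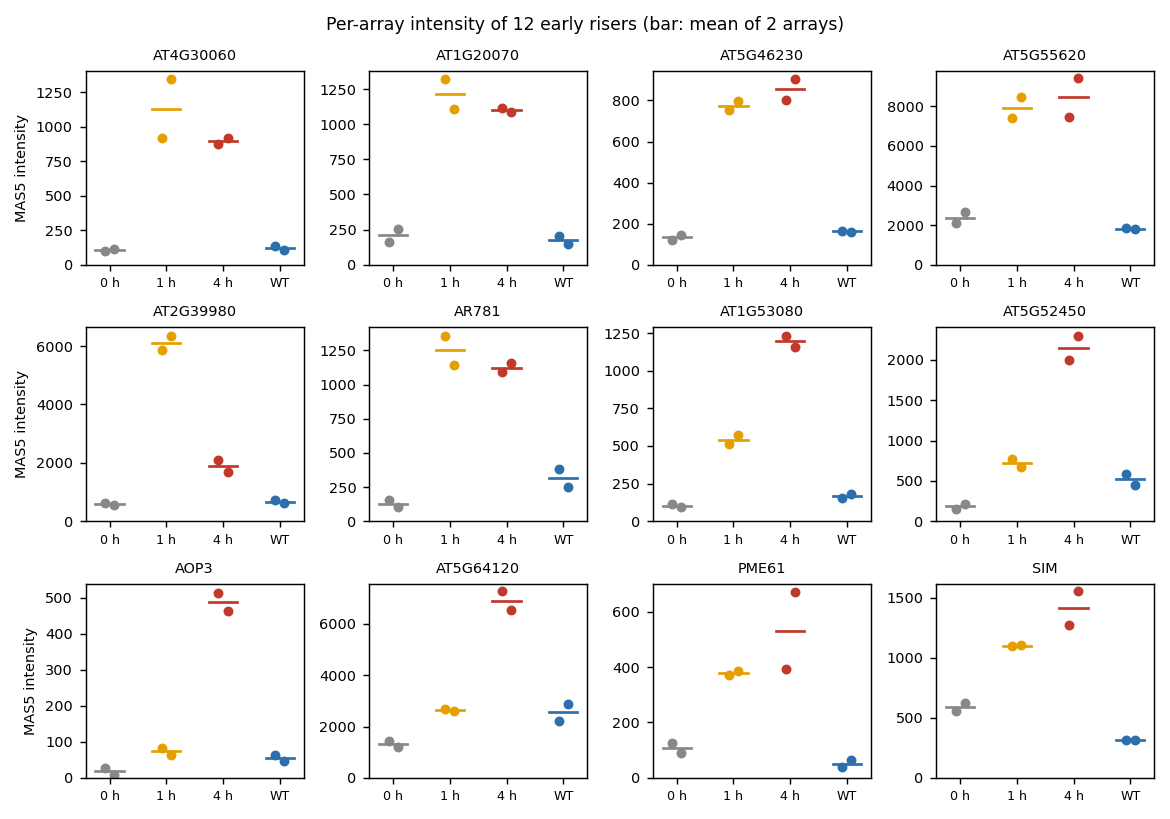
Intensity on each array (points) and mean of the 2 arrays (horizontal lines) for 12 early risers; 0 h, 1 h and 4 h are the LEC2-GR line and WT is wild type at 4 h. The upper 4 genes hold their 1 h level at 4 h, AT2G39980 falls from about its 1 h values of 5859 and 6357 to 2084 and 1683, and AOP3 and AT5G64120 reach most of their level between 1 h and 4 h.

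Wild type at 4 h against the untreated line sets the groups side by side that the rule required to lie below the 4 h line. It mixes dexamethasone, time and transgene. Of the 150 early risers 37 were called higher in wild type and 10 lower, where 16.8% and 14.3% of all tested probe sets were; 103 were not called. The median difference was 0.27 over the members and 0.03 over all. The rule set more limits against the untreated line than against wild type. Choosing members by a low untreated mean can by itself add higher calls, remove lower calls and raise this median. How the members' counts and median differ from those of all tested probe sets is therefore not read as a result. Without wild type replicate 1 the higher calls numbered 21, and without wild type replicate 2 the lower calls numbered 4. Of the 67 with a single gene 16 were called higher and 4 lower, and 10 of these 20 calls held without each array in turn.

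Several early risers were thus higher in treated wild type than in the untreated line as well, and, as the rule requires, lower than in the 4 h line. AT5G52450 was higher by 1.302 (SE 0.19, limma adjusted p = 9.15e-05), AT5G22580 by 1.25 (adjusted p = 3.59e-05), AT3G16530 by 1.22 and PUB23 by 1.18 (adjusted p = 8.79e-04). AT5G22580 read 276 and 271 untreated, 750 and 906 at 1 h, 2201 and 1768 at 4 h and 700 and 726 in wild type. PUB23, a U-box ubiquitin ligase known as a brake on immune signalling, read 114 and 98.7, then 503 and 671, then 697 and 695.5, with 383 and 229 in wild type. AR781 read 153 and 102, then 1358 and 1142, then 1091.5 and 1158, with 382 and 248 in wild type, and was higher in wild type by 1.05 (adjusted p = 0.00124). AT5G64120 and EXPA4 were higher in wild type by 0.92 and 0.87 and AT5G20700 by 0.63. The largest such difference among the 150 was on a probe set with no listed gene, which read 56.7 and 6.1 untreated, 5159 and 6185 at 1 h, 5824 and 6729 at 4 h and 1441 and 1026 in wild type. It met the threshold against wild type with a difference of 2.31, although wild type itself was 4.13 above the untreated line.

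Others were lower in wild type than in the untreated line, so that at 4 h the line differed more from wild type than from its own untreated state. AT1G23000, with a heavy metal-associated domain, read 237 and 253 untreated, 335 and 451 at 1 h, 605 and 643 at 4 h and 94.6 and 90.6 in wild type, and was lower in wild type by a log2 difference of -1.08 (SE 0.20, limma adjusted p = 8.1e-04). SIM, the cyclin-dependent kinase inhibitor SIAMESE that promotes endoreduplication in leaf hairs, read 560 and 625, then 1096 and 1104, then 1274 and 1556, with 316 and 317 in wild type, a difference of -0.82 (adjusted p = 0.00109). CW14 read 281 and 355, then 709 and 1085, then 1187 and 910, with 191 and 149 in wild type, and differed by -0.76 (adjusted p = 0.0151; up to 0.131 without untreated replicate 2 or wild type replicate 2). AT5G60760 differed by -0.73 and did not pass; it read 48.2 and 98.4, then 225 and 190, then 338 and 460.5, with 13.2 and 38.7 in wild type. The class III peroxidase AT4G33420 read 864 and 979, then 2787 and 3320, then 3030.5 and 2983, with 702 and 499 in wild type, and differed by -0.60 (adjusted p = 0.0121; up to 0.184 without untreated replicate 2 or wild type replicate 2, and also lost without the trend).

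**Figure D4:**
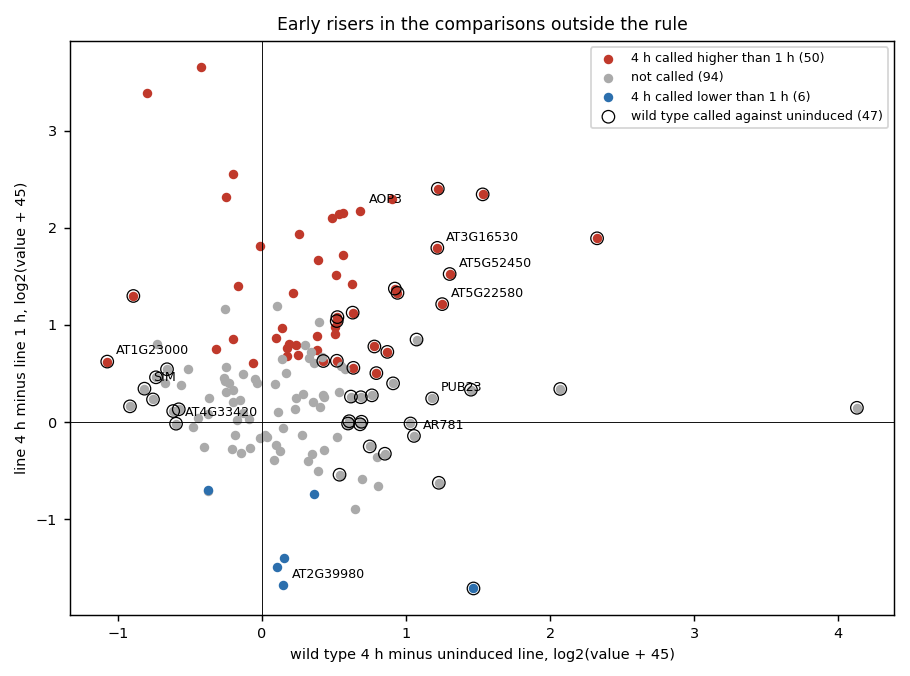
Each point is 1 of the 150 early risers, with the difference between wild type at 4 h and the untreated line on the x axis and that between the line at 4 h and at 1 h on the y axis, both on the log2(value + 45) scale; colours mark calls of 4 h against 1 h and rings the calls of wild type against the untreated line. The 50 red points above 0 include AOP3 and AT3G16530, and AT2G39980 lies among the 6 blue points below 0.

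The line at 1 h can be set beside wild type at 4 h, but they differ in time and transgene and lie on opposite sides of the split in the hybridisation and scan records, so that these cannot be told apart. Of the 150 early risers 109 were called higher in the line at 1 h and 1 was called lower, where 9.12% and 10.1% of all tested probe sets were called higher and lower. The rule makes most of this likely, since it required 1 h to exceed the untreated line and wild type to lie below 4 h, and nothing is read from the count. AT2G39980 differed by 3.12, AT4G30060 by 2.81, AT1G20070 by 2.52, AT4G33420 by 2.28 and AT5G55620 by 2.10, all with limma adjusted p of at most 9.75e-07. The member called lower was AT3G16530 (-0.68, adjusted p = 0.00303; 0.057 without wild type replicate 2). For AOP3 (0.23), AT1G57630 (0.03), AT1G26420 (0.07) and AT5G64120 (0.06) the line at 1 h was within 0.3 of wild type at 4 h on the log2 scale and not called.

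By role, the named early risers were spread over many processes. A role group was given to 37 of the 67, after their values had been seen, and the groups are used for description only. The 7 of oxidation and peroxidases had a median of 0.98 at 1 h and 2.64 at 4 h against the untreated line, and 6 of them were called higher at 4 h than at 1 h, a call made for 50 of the 150 early risers and 10.3% of all tested probe sets. These 6 were AOP3, AT1G26380, AT1G26420, AT5G64120, AT1G30700 (0.91, adjusted p = 0.0363) and the dioxygenase family member AT2G44800 (1.42, adjusted p = 0.011), the last 2 calls being lost without 1 h replicate 2 or either 4 h array and with a pseudocount of 1 (adjusted p up to 0.289 and 0.144). AT1G30700, a further berberine bridge enzyme-like protein, read 57.5 and 121 untreated, 537 and 297.5 at 1 h, 853 and 735 at 4 h and 173.5 and 112 in wild type. AT2G44800 read 5.6 and 37.9, then 124 and 71.4, then 338 and 322.5, with 42.7 and 68.7 in wild type. The seventh, AT4G33420, was as high at 1 h as at 4 h. AT1G26380 and AT1G26420 lie close together on chromosome 1 with 3 protein-coding genes between them in the RefSeq annotation of assembly TAIR10.1, as AT5G16200 and AT5G16240 do on chromosome 5; cross-hybridisation between relatives of such families was not tested.

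The 6 genes of the cell wall group mostly act on pectin, the gel-like polysaccharide between the cellulose fibres. PME61, a pectin methylesterase, read 126 and 88.4 untreated, 371 and 386 at 1 h, 394 and 670 at 4 h and 37.3 and 63.3 in wild type. A further pectin methylesterase, AT3G10720, read 1692 and 1614.5, then 5431 and 4761, then 4282 and 4092, with 1605 and 1257.5 in wild type. AT5G04310, of the pectate lyase family that cleaves demethylated pectin, read 16.4 and 40.1, then 166 and 148, then 295 and 317, with 30.4 and 59.6 in wild type. In these 3 genes the treated line lay above both control groups on every array, and none of the 3 was called between 4 h and 1 h. EXPA4, an expansin that loosens cell walls, read 299 and 313, then 746 and 868, then 1294 and 1424, with 664 and 535 in wild type, and rose by 0.72 from 1 h to 4 h (limma adjusted p = 0.00631; up to 0.0626 without 1 h replicate 1 or 4 h replicate 2). AT1G60590 of the pectin lyase-like family and the proline-rich protein AT1G70990 were smaller cases, at 0.65 and 0.70 above the untreated line at 1 h.

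Signalling proteins made up a group of 6. B120, a receptor kinase of the S-domain family, read 36.3 and 16.3 untreated, 175 and 107 at 1 h, 277 and 293 at 4 h and 135 and 77.1 in wild type, so that its 1 h and wild type arrays overlapped. AT5G59680, a leucine-rich repeat receptor-like kinase, read 3.0 and 17.8, then 87.3 and 75.0, then 235 and 193, with 4.6 and 59.9 in wild type. IQD22, of a family of calmodulin-binding proteins, read 226.5 and 110.5, then 831 and 729, then 582.5 and 718, with 288 and 312 in wild type. The EF-hand calcium-binding protein AT4G27280 read 1173 and 840, then 2331 and 2333, then 2613 and 2422, with 1312 and 881 in wild type. Together with PUB23 and AT1G57630, these genes had a median of 1.15 for 4 h against wild type and 2.22 for 4 h against the untreated line. Of the 6, B120, IQD22 and PUB23 were called higher in wild type than in the untreated line, as were 16.8% of all tested probe sets. The rule can by itself add such calls, and nothing is read from this count. The call of B120 was lost without untreated replicate 2 or wild type replicate 1 (adjusted p up to 0.198) and that of IQD22 without untreated replicate 2 or either wild type array (up to 0.279). B120 also lost it in a fit of the 2 groups alone, and IQD22 with no filter or no trend.

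Of the transport and membrane group, AT1G22570, of the family of nitrate and oligopeptide transporters, read 474 and 578 untreated, 2209 and 2597 at 1 h, 2005 and 2383 at 4 h and 606 and 682 in wild type. PRA1.B4, a prenylated RAB acceptor of vesicle traffic, read 358 and 422, then 1321 and 1487, then 1185 and 1664, with 707 and 607 in wild type. Both were at their 4 h level by 1 h, with differences between 4 h and 1 h of -0.13 and 0.00 that did not pass. Among metabolic enzymes, AT3G57020 of the strictosidine synthase-like family read 1426 and 1087.5, then 3037.5 and 3897, then 3598 and 5053, with 1110 and 976 in wild type. AT5G16240, of the acyl-ACP desaturases that make unsaturated fatty acids in plastids, read 223 and 157 untreated, 377 and 219 at 1 h, 575.5 and 543 at 4 h and 191 and 128 in wild type; its untreated and 1 h arrays overlapped. BGLU28, a beta-glucosidase, read 58.1 and 4.8, then 76.1 and 71.0, then 239 and 214, with 50.7 and 17.2 in wild type. AT3G53250, of the SAUR family of small auxin-responsive proteins, read 125 and 109, then 379 and 429, then 737 and 626, with 186 and 115 in wild type, and rose by 0.69 from 1 h to 4 h (limma adjusted p = 0.0388), a call lost without either 1 h array or either 4 h array and with pseudocounts of 1 or 16, no filter or no trend (up to 0.227).

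The 30 single-gene early risers with no role given here include bright ones. AT5G20700 read 2446 and 2431 untreated, 5476.5 and 7014 at 1 h, 8428 and 9932 at 4 h and 3623 and 4001 in wild type. DRT100 read 2477 and 2478, then 4426 and 5911, then 7385 and 9113, with 2764 and 2842 in wild type, and rose by 0.68 from 1 h to 4 h (limma adjusted p = 0.00471; up to 0.0769 without 1 h replicate 1 or 4 h replicate 2). AT5G24600 read 75.4 and 52.3, then 262 and 256, then 360 and 189.5, with 68.9 and 35.8 in wild type, and its 4 h arrays stood on either side of the 1 h arrays. Of the 82 unlisted probe sets 25 were called higher and 3 lower at 4 h than at 1 h, and 21 were called higher and 6 lower in wild type than in the untreated line. Of all tested probe sets 10.3% and 9.34% were called in the first comparison and 16.8% and 14.3% in the second. In both, the rule can by itself add higher calls, as for all early risers, and nothing is read from these differences. The largest difference from wild type at 4 h among the 150 belonged to one of them, which read 41.3 and 64.5 untreated, 180 and 433 at 1 h, 4244 and 3950 at 4 h and 30.5 and 24.6 in wild type.

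Genes known from the LEC2 programme and from handling were mostly not readable by name. Of 20 embryo regulators 3 had their own probe set; 2 were tested and none was among the early risers. EEL, a bZIP factor of the embryo, read 73.6 and 175 untreated, 309 and 270 at 1 h, 223 and 240 at 4 h and 90.8 and 83.8 in wild type. It was higher at 1 h than wild type by 1.34 (limma adjusted p = 0.00392), where time differs too. At 4 h EEL was higher than wild type by 1.06 (adjusted p = 0.0356). Against the untreated line EEL was higher by 1.05 at 1 h and 0.77 at 4 h (adjusted p = 0.0189 and 0.0474). BZIP53, the other regulator tested, read 1878 and 1822 untreated and 1561 and 1323 at 1 h. At 4 h BZIP53 read 1481 and 1347, with 1387 and 1392 in wild type. It differed from wild type by 0.047 at 1 h (limma adjusted p = 0.868). At 4 h it was lower than in the untreated line, by a log2 difference of -0.38 (limma adjusted p = 0.0482). In wild type BZIP53 was lower than in the untreated line by a similar difference, -0.40 (adjusted p = 0.0417). Of all tested probe sets 16.8% and 14.3% were called lower in these comparisons. The 4 h line and wild type differed by 0.023 in BZIP53 (adjusted p = 0.971). Of 21 seed protein genes 5 had a probe set and 2 were tested: the oleosin OLEO3, which met the thresholds and was left out by name, and the late embryogenesis gene M10, which was at 7.7 and 14.3 at 1 h and 471 and 423 at 4 h, a late rise. Of 14 auxin response genes 6 had a probe set and 5 were tested, with 1 called higher and 2 lower at 1 h than in the untreated line, where 9.5% and 7.16% of all tested probe sets were. The 2 lower ones, IAA29 and WES1, were also called lower in wild type than in the untreated line (-1.09 and -1.24, limma adjusted p = 0.00323 and 7.65e-05). In the 4 h line against wild type 3 of the 5 were called higher and 1 lower, where 3.42% and 3.21% of all tested probe sets were. Of 11 touch and handling genes the zinc finger gene STZ alone had a probe set. STZ read 87.9 and 142 untreated, 1438 and 1097 at 1 h, 782 and 925.5 at 4 h and 788.5 and 661.5 in wild type. It was higher in wild type than in the untreated line by 2.28 (adjusted p = 6.42e-07), and its wild type arrays lay close to those of the 4 h line.

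Markers of seedling organs were present in every group. Of 5 shoot markers 2 had a probe set of their own, RCA and LHCB4.2, with a summed intensity of 66551 and 73370 in the untreated line, 55060 and 46360 at 1 h, 33780 and 39523 at 4 h and 36149 and 39578 in wild type. Of 5 root markers 2 had one, PYK10 and EXPA7, with sums of 10071 and 10801, 10518 and 10604, 8955 and 7744, and 12730 and 11930.5 in the same order. None of these 4 genes was at 0 on any array, and none of the 5 seed markers had a probe set of its own. The shoot sum was thus similar in the 4 h line and wild type, and the root sum was lower in the 4 h line than in wild type. The root sum is mostly PYK10, which read 8833 and 7632.5 at 4 h and 12590 and 11777 in wild type. PYK10 was called lower in the 4 h line than in wild type (-0.57, limma adjusted p = 0.00717), as were 3.21% of all tested probe sets. EXPA7 read 122 and 112 at 4 h and 139 and 153 in wild type, and was not called (-0.24, limma adjusted p = 0.821). The part of these markers in the differences of the early risers was not tested.

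The early risers with a single gene were found on all 5 chromosomes, 22 on chromosome 1, 10 on chromosome 2, 7 on chromosome 3, 11 on chromosome 4 and 17 on chromosome 5. Of all single-gene probe sets on these, chromosome 1 holds 25.7% and chromosome 3 20.4%, against 32.8% and 10.4% of the early risers, a description for which no test was made. Of the 150 probe sets 3 are of the kinds that can cross-hybridise by design.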

How the data were processed

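The authors deposited linear MAS5 intensities, 1 for each probe set on each array; the tool is named, without a version, in the submitters' processing notes. The mean after trimming 2% from each end is 500.05 on all 8 arrays, so arrays were already scaled. Probe sets were named from the platform annotation, and loci through RefSeq's genes of TAIR10.1, which matched all 67 single-gene members. The members, gene lists, roles and tests were chosen with earlier results of these data known. Values were turned into log2(value + 45), 45 being close to the 25th percentile of all values (45.2). Testing required a signal over the 40th percentile of that array on 2 or more arrays (15026 probe sets); all 150 members passed, but a member high in 1 group passes through it. One mean per group was fitted to all 8 arrays in limma 3.58.1 under R 4.3.3 (eBayes with trend, 4 residual and 11.2 prior degrees of freedom), adjusted by Benjamini-Hochberg over all probe sets tested and checked on simulated data. Differences used by the rule are of group means; the others are fitted. Fold changes on this scale understate those of low signals, and 2 arrays per group limit precision. Named genes are the 15 single-gene members with the largest smallest difference, the 5 highest and 5 lowest for 4 h against 1 h, the 4 highest and 4 lowest for wild type against untreated, regulators, and examples of each role group chosen after their values were seen. Same-numbered replicates were not paired: deviations of replicate 1 from its group mean correlated at -0.0637 to 0.0334 over 6 pairs of groups. Alternatives were pseudocounts of 1, 16 and 100, no filter, quantile normalization, no trend, fits of the 2 groups compared, a replicate block, each array left out, other level thresholds and means of log2 values. Motif counts in promoters were planned and were not made.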

Additional observations from a re-analysis of the deposited data

How the results depend on the processing

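The count of probe sets that met the rule was 109 to 185 over pseudocounts of 1, 16 and 100, quantile normalization, level thresholds of 100 and 400 and means of log2 values, all within 1.5 times 150, and 142 to 159 with 1 array left out. Early risers called higher at 4 h than at 1 h numbered 27 to 53 with 1 array left out (50 with all), lower 4 to 9 (6). For wild type against the untreated line these ranges were 21 to 36 higher (37) and 4 to 10 lower (10), and for 1 h against wild type 94 to 113 higher (109). Calls of 4 h against 1 h were lost most without a 4 h array, when fewer samples remained and 144 members were tested. With the replicate number as a block (replicate block) the counts were 51 and 7 for 4 h against 1 h, 35 and 11 for wild type against untreated and 109 for 1 h against wild type. Pseudocounts, no filter, quantile normalization, no trend and 2-group fits kept each of these 5 counts within 1.5 times. No call of a named gene turned its direction under these alternatives. All calls rest on 2 arrays per group, and no detection calls show which low signals lie above background. Motif counts in promoter windows were not run.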
